A study of Rattus norvegicus with 24 samples.

Results

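The motile cilium genes described here are a list of 49 genes of the ciliated airway cell and its axoneme, the microtubule core of a beating cilium, followed across the lungs of 24 Fischer-344 rats that breathed hexanal or filtered clean air. A gene was taken from the array where a probe's accession was named with the listed symbol, and 26 of the 49 genes were found in this way. Of these, 25 passed the filter on dim probes, and all 25 were well above background on all 24 arrays. Spag6, a central pair protein, was on the array but was not well above background on any of them. The 23 listed genes not matched to a probe were Rfx3, Mcidas, Ccno, Dnah2, Dnah3, Dnah5, Dnah6, Dnah7, Dnah8, Dnah9, Dnah10, Dnah11, Dnah12, Dnaaf3, Spag17, Rsph4a, Ccdc39, Hydin, Cfap43, Cfap44, Cfap70, Pifo and Lrrc23. In all, 21261 features were tested in the series, of which 12500 had a gene symbol.

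Hexanal is an aldehyde of indoor air, and the study asked how lung gene expression differed after inhaling it. Lung RNA came from 6 control rats (filtered clean air) and from 6 rats at each of 3 concentrations of hexanal vapor, 600 ppm (low dose), 1000 ppm (middle dose) and 1500 ppm (high dose), breathed 4 h a day on 5 days a week. Each group held 3 males and 3 females, 7 to 8 weeks of age, of the same strain. The exposure lasted 4 weeks by the paper and 5 weeks by the sample labels, which give the same doses in mg per cubic meter in one field and in ppm in the others. Doses are given in ppm here. RNA was extracted from bulk lung tissue, so that more cells of a type and more RNA per cell cannot be told apart in any value below. The rats lay on 6 array slides of 4 rats, each of 1 sex, and no control rat shared a slide with a rat of the middle-dose or high-dose group.

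Motile cilia stand in tufts on the multiciliated cells of the trachea, bronchi and bronchioles, where they beat to carry mucus and inhaled particles out of the lung. Their axoneme is a ring of microtubule doublets around a central pair. Dynein arms on the doublets produce the beat, radial spokes and the nexin-dynein regulatory complex coordinate it, and tektins and other inner proteins stiffen the doublets. FOXJ1 and the RFX factors switch on most of these genes together in multiciliated cells.

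Because these genes are known targets of RFX and forkhead factors, the promoters of the measured genes were read. Of the 25 genes, 18 were matched by symbol to a RefSeq promoter of the rat assembly GRCr8, a window of fixed length that lies mostly before the start of the gene. Foxj1, Dnaaf1, Spag16, Rsph1, Cfap52, Tppp3 and Lrrc6 were not matched. The letters GTTGCC, a form of the half-site bound by RFX factors, stood on 1 of the strands in 9 of the 18 promoters (50%) and in 12.2% of all 33469 promoters of the same length. The 9 genes were Rfx2, Dnai2, Tekt1, Tekt2, Tekt4, Drc1, Spef2, Mns1 and Ift88. The looser letters GTTNCC, which take in GTTGCC, were in 15 of the 18 (83.3%) and in 46% of all promoters. The letters TGTTTAC, a form of the forkhead site, were in 2 of the 18 (Dnali1 and Spef2, 11.1%) and in 3.78% of all promoters. Below, the 150 bases around the start site, of which the last 25 are transcribed, are shown for 4 genes called at 1000 ppm, 3 that hold GTTGCC (in capitals, or its reverse complement GGCAAC) and Ccdc40, which had the largest difference and does not hold it in this window. Ak7 and Ak8, also called at 1000 ppm and matched to a promoter, are not shown and do not hold GTTGCC. With Ccdc40 they are the only matched genes that do not hold GTTNCC either. A match is a match of letters only.
Dnai2, GRCr8 chr10:100258897-100259046, plus strand: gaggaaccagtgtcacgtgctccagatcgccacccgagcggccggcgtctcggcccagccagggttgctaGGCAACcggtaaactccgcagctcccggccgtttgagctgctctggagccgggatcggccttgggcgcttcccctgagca
Tekt4, GRCr8 chr10:14992159-14992308, plus strand: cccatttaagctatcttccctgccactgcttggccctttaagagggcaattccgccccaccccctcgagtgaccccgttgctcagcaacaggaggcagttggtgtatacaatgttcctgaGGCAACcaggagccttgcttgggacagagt
Spef2, GRCr8 chr2:60421826-60421975, minus strand: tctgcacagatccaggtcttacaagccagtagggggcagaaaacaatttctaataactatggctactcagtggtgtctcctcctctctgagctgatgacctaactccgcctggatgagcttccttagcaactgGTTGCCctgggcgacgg
Ccdc40, GRCr8 chr10:104985158-104985307, plus strand: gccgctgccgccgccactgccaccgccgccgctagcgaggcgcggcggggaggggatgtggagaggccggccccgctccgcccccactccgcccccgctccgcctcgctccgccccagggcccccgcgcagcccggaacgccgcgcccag

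Levels are given as the log2 probe signal relative to the 75th percentile of the same array, so that they compare rats for 1 gene and not 1 gene with another. The 75th percentile lay between 1700.94 (high-dose rat 36) and 3129.92 over the 24 arrays, and between 70.71% and 81.85% of probes were well above background. The alveolar type 2 markers that mark lung tissue were present, with 9 of the 10 listed genes matched and all 9 above the filter. Each dose was compared with control by limma on all 24 arrays, and genes that differed by 1.5-fold or more at an unadjusted p-value below 0.05 were counted as called.

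The cilium genes stood higher in the middle-dose group than in the control group as a set, with little difference at 600 ppm and a smaller one at 1500 ppm. At 1000 ppm all 25 genes had a mean above the control mean, where 51.4% of all features did. Their median log2 difference was 0.50 (1.42-fold), from 0.087 for Tppp3 to 0.80 for Ccdc40, beside 0.0055 over all features. The unadjusted p-value was below 0.05 for 12 genes that were higher (5.41% of all features) and for 0 that were lower (3.57%). With the 1.5-fold threshold 7 were called higher (1.29%) and 0 lower (0.339%). None passed the Benjamini-Hochberg adjustment in limma, against 0.0188% of all features, and the smallest adjusted p-value of a cilium gene was 0.516. The 25 genes varied together from rat to rat, with a mean pairwise correlation of 0.79 within groups. Counts of genes, here and below, are therefore not counts of independent results. Taken as 1 mean level per rat, the middle-dose group was 0.46 above control, with SDs of 0.36 and 0.38 (n = 6 each).

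At 600 ppm 19 of the 25 genes were above the control mean (49.9% of all features) and the median difference was 0.058. None was called higher (0.169% of all features) or lower (0.437%). The count at an unadjusted p-value under 0.05 in limma was also 0 in either direction, against 1.94% of all features higher and 2.41% lower, and 0% of all features passed the adjustment at this dose. At 1500 ppm 24 of the 25 were above the control mean (53.6%), with a median of 0.18. Again none was called higher (0.701%) or lower (0.531%), and none had an unadjusted p-value under 0.05 in limma, against 3.91% of all features higher and 3.04% lower. Over all features 0.0047% passed the adjustment at 1500 ppm. The 3 doses share the same 6 control rats.

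**Figure D1:**
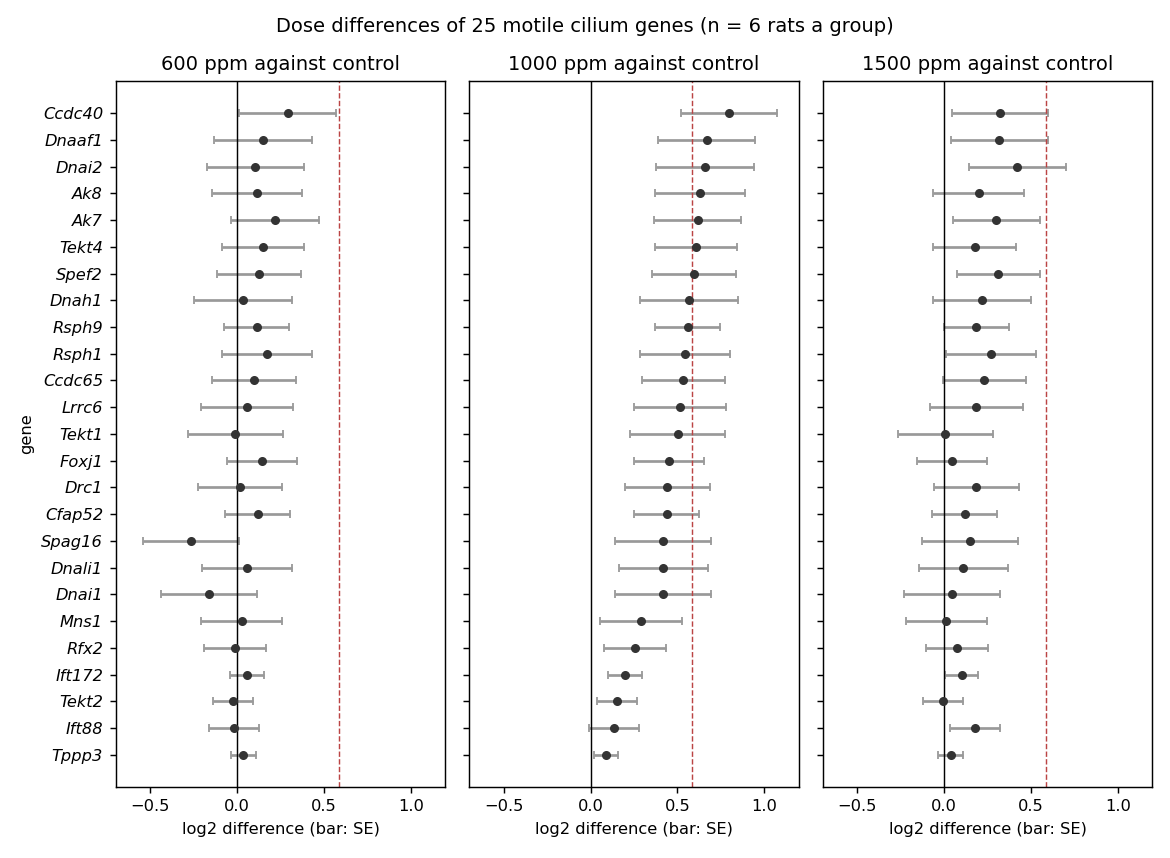
Log2 difference of each cilium gene from control at 600, 1000 and 1500 ppm, with its limma standard error (6 rats a group), the dashed line marking a 1.5-fold rise. At 1000 ppm all 25 points lie above 0 and 7 lie beyond the dashed line, while the medians were 0.058 at 600 ppm and 0.18 at 1500 ppm.

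The transcription factors of the program had intermediate differences. Foxj1, the forkhead factor that commits a cell to motile cilia, ran from 0.11 to 1.23 (median 0.65) in the control group and from 0.86 to 1.40 (median 1.13) in the middle-dose group. All 6 middle-dose rats were above the control median and 2 were above every control rat, so the groups overlapped. The log2 difference of Foxj1 was 0.45 (SE 0.20, unadjusted p = 0.0365, limma adjusted p = 0.532; two-sided exact permutation p = 0.0346, 6 rats against 6). Rfx2, which works beside FOXJ1 on the same promoters, differed by 0.25 (SE 0.18, limma adjusted p = 0.693). At 1500 ppm the differences were 0.046 for Foxj1 and 0.076 for Rfx2.

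Among the dynein genes, Dnai2 and Dnaaf1 were called higher at 1000 ppm. Dnai2, an intermediate chain of the outer dynein arm, ran from -2.35 to -0.68 (median -1.58) in the control group and from -1.42 to -0.40 (median -0.89) in the middle-dose group. Its log2 difference was 0.66 (SE 0.28, limma adjusted p = 0.516; exact permutation p = 0.0584), and the groups overlapped. Dnaaf1, which helps assemble dynein arms in the cytoplasm, ran from -3.55 to -2.24 (median -2.98) in control and from -2.87 to -1.74 (median -2.30) in the middle-dose group, a difference of 0.67 (SE 0.28, exact permutation p = 0.0433). The uncalled members had close values. Dnah1, an inner-arm heavy chain and the only one of 11 listed heavy chains that was measured, differed by 0.57 (SE 0.28), the second assembly factor Lrrc6 by 0.51 (SE 0.27), the axonemal light intermediate chain Dnali1 by 0.42 (SE 0.26) and the other intermediate chain Dnai1 by 0.42 (SE 0.28). In low-dose rat 26 the level of Dnai1 was -3.00, below every control rat, the lowest of which was at -2.50.

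The radial spoke and central pair genes were the largest group by structure, with 6 measured. Of these, 5 were higher at 1000 ppm with an unadjusted limma p-value under 0.05 (5.41% of all features), and 3 were called higher (1.29%). Rsph9, a protein of the spoke head, had the smallest p-value of all cilium genes. It ran from 0.17 to 1.18 (median 0.69) in the control group and from 0.86 to 1.56 (median 1.26) in the middle-dose group, a difference of 0.56 (SE 0.19, unadjusted p = 0.00716, limma adjusted p = 0.516), just under the 1.5-fold threshold. Its 3 lowest middle-dose rats were males that lay within the control range. The adenylate kinases Ak8 and Ak7, enzymes that balance adenine nucleotides, differed by 0.63 (SE 0.26) and 0.62 (SE 0.25). Spef2, a protein of the central pair apparatus, differed by 0.59 (SE 0.24), and its second probe gave 0.51. Rsph1, another spoke head protein, differed by 0.54 (SE 0.26), and Spag16, a central pair protein, by 0.42 (SE 0.28). Spag16 had the lowest difference of any cilium gene at 600 ppm, -0.27 (SE 0.28, limma adjusted p = 0.996).

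Ccdc40, a part of the molecular ruler that sets the spacing of spokes and inner dynein arms, had the largest difference of all cilium genes at 1000 ppm. It ran from -0.33 to 0.90 (median -0.052) in the control group, from -0.066 to 1.05 (median 0.27) at 600 ppm, from 0.28 to 1.41 (median 0.95) at 1000 ppm and from -0.30 to 1.33 (median 0.43) at 1500 ppm. The difference at 1000 ppm was 0.80 (1.74-fold, SE 0.28, unadjusted p = 0.0090, limma adjusted p = 0.516; exact permutation p = 0.0173), with 3 of the 6 rats above every control rat. The nexin-dynein regulatory complex genes Ccdc65 and Drc1 differed by 0.53 (SE 0.24) and 0.44 (SE 0.24).

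Among the tektins and other inner proteins of the doublets, Tekt4 was called. It ran from 0.15 to 1.28 (median 0.66) in the control group and from 0.83 to 1.64 (median 1.35) at 1000 ppm, a difference of 0.61 (SE 0.24, exact permutation p = 0.0325). Tekt1 differed by 0.50 (SE 0.27), the doublet protein Cfap52 by 0.44 (SE 0.19) and Mns1, needed for motile cilia and sperm tails, by 0.29 (SE 0.23), while Tekt2 differed by 0.15 (SE 0.12). Differences of 0.20 or less were also found for the intraflagellar transport genes Ift172 and Ift88, which carry cargo along the cilium and are used by primary cilia as well (0.20, SE 0.096, and 0.13, SE 0.14), and for Tppp3, a microtubule-bundling protein (0.087, SE 0.070), for which all rats of both groups lay between 5.83 and 6.25.

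At 1000 ppm no cilium gene had all 6 rats above all 6 controls, against 0.268% of all features. Between 1 and 3 of the 6 middle-dose rats exceeded every control rat for each gene, and for 13 genes all 6 exceeded the control median (9.3% of all features). By the exact permutation test 8 of the 25 genes were higher with a p-value under 0.05 (5.31% of all features), the smallest being 0.0173.

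**Figure D2:**
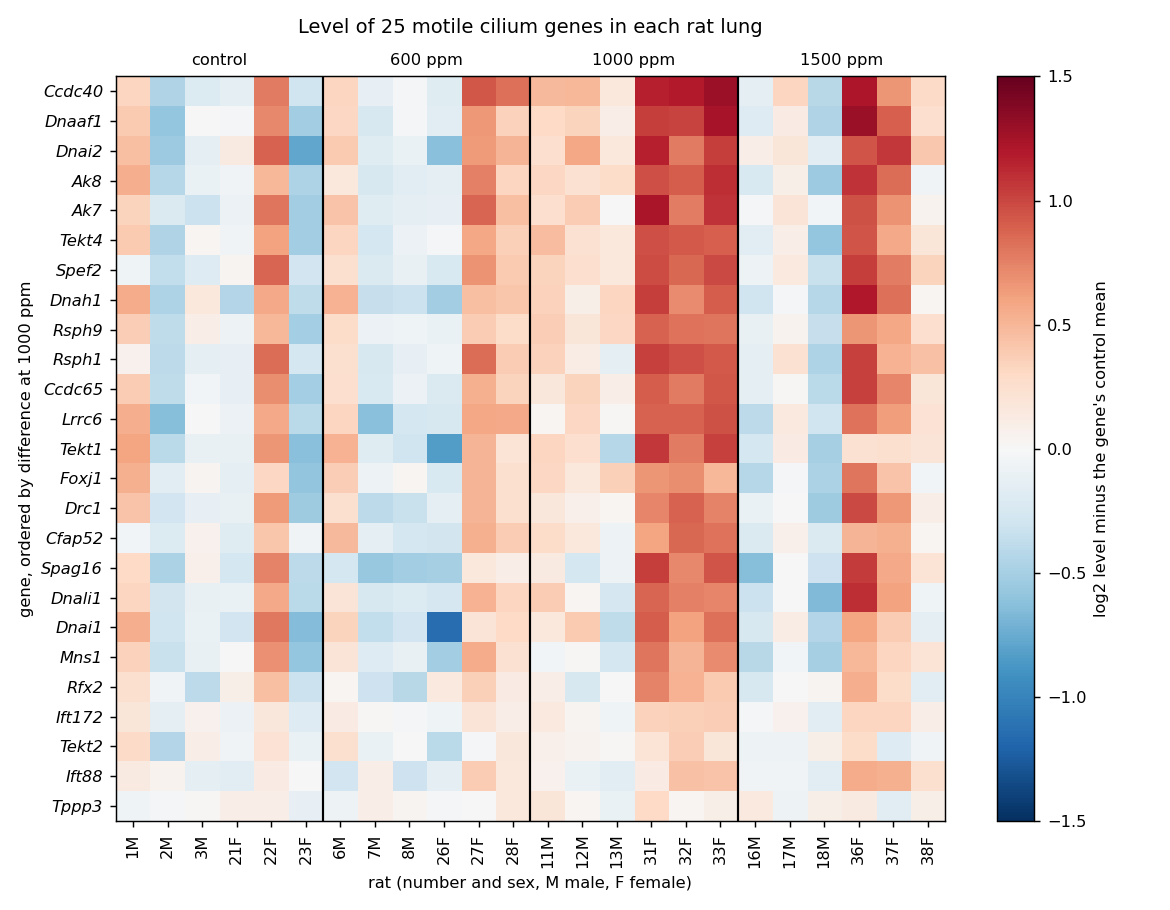
Level of each of the 25 cilium genes (rows, ordered by the difference at 1000 ppm) in each of the 24 rats (columns, by group, with sex), as the log2 level minus the mean of that gene in control rats. The columns of the 3 middle-dose females (rats 31, 32 and 33) and of high-dose female 36 are red from top to bottom (paler in the last rows), control rat 22 is also high, and Tppp3, Ift88, Tekt2 and Ift172 vary least.

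The highest levels at 1000 and 1500 ppm were those of females, which lay on other slides than the males. Sex and slide therefore cannot be told apart here. On the slides that 600 and 1000 ppm rats shared, the median difference between these doses was 0.44 in males and 0.39 in females. At 1000 ppm every female was above every male of the group for 24 of the 25 cilium genes, against 11.5% of all features. At 1500 ppm this held for 15 of the 25 (16.5% of all features), at 600 ppm for 1 (15.8%) and in the control group for 0 (18.5%). Tekt4 shows the pattern, with middle-dose females between 1.57 and 1.64 and males between 0.83 and 1.13, and control females between 0.15 and 1.28 and males between 0.22 and 1.06. Ccdc40 likewise lay between 1.28 and 1.41 in middle-dose females and between 0.28 and 0.61 in males.

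Taken against the control rats of the same sex, the median log2 difference of the 25 genes at 1000 ppm was 0.15 in males (22 genes above 0, 56.1% of all features) and 0.82 in females (25 above 0, 47.1%). The female difference was the larger for all 25 genes, against 46.2% of all features. At 1500 ppm it was -0.15 in males (7 above 0, 54.5% of all features) and 0.53 in females (23 above 0, 50.6%), and the female difference was the larger for 23 genes (48.7%). At 600 ppm it was -0.0034 in males and 0.18 in females. The test of the difference between the sexes gave an unadjusted p-value under 0.05 for 6 genes at 1500 ppm (20.2% of all features), 3 at 1000 ppm (9.43%) and 0 at 600 ppm (5.02%). None passed the adjustment in limma at 600 ppm (0% of all features), 1000 ppm (0%) or 1500 ppm (4.97%). The counts at an unadjusted p-value under 0.05 lay near the shares of all features at 1500 and 1000 ppm. They do not set the cilium genes apart from other features. The 6 genes at 1500 ppm were Foxj1, Ift88, Ift172, Rsph9, Dnah1 and Spag16. Foxj1 had the smallest p-value, with a difference of -0.44 in males and 0.54 in females (male minus female -0.98, SE 0.35, unadjusted p = 0.0112, limma adjusted p = 0.112). Ift88 followed with -0.10 in males and 0.46 in females (limma adjusted p = 0.114). Ift172 and Ift88 were also among the 3 genes at 1000 ppm, with Spag16. Sex and slide cannot be told apart in these counts, since each slide held 1 sex, and with slide as a fixed block the female difference was the larger for 4 genes at 1000 ppm and 2 at 1500 ppm.

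**Figure D3:**
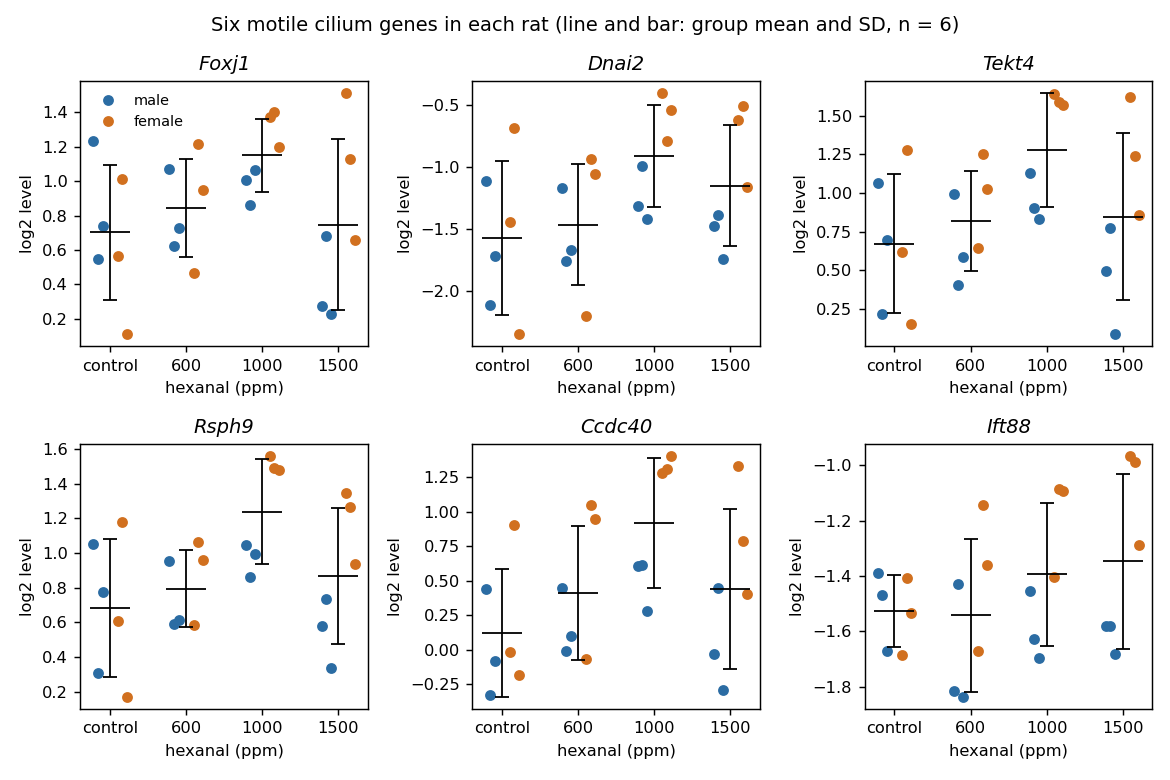
Log2 level of Foxj1, Dnai2, Tekt4, Rsph9, Ccdc40 and Ift88 in each male (blue) and female (orange) rat against the hexanal dose, with the group mean and SD (6 rats). For all 6 genes the 3 middle-dose females lie above the 3 middle-dose males, and the control points of the sexes overlap.

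Within slides, where no difference between slides enters, the 1000 and 600 ppm groups could be compared directly. On the slide of 2 low-dose and 2 middle-dose males all 25 genes were higher in the middle-dose rats, with a median difference of 0.44, and for 23 of the 25 both rats were above both low-dose rats (16.3% of all features). On the matching slide of females the 25 genes were again all higher, with a median of 0.39, and 21 were separated in the same way (21% of all features). The share of all features with a higher mean was 51.7% and 52.1% on these slides. Control rats shared a slide with only 1 low-dose rat of each sex. The male (rat 6) was above the mean of its 3 controls for 22 of 25 genes (median 0.27, 42.7% of all features higher), and the female (rat 26) for 1 of 25 (median -0.24, 55.5%). The mean of the 3 high-dose rats was above the single middle-dose rat of their slide for 7 of 25 genes in males (median -0.12, 45.5% of all features higher) and for 1 of 25 in females (median -0.29, 52.7%). The high-dose rats differed among themselves, since male 17 was above middle-dose male 13 for 15 genes and males 16 and 18 for 5 and 4. Female 36 was above middle-dose female 33 for 14 genes and females 37 and 38 for 2 and 0.

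With slide as a fixed block the median difference at 1000 ppm was 0.43, Ift88 turned to -0.17 (SE 0.16), and none of the 25 genes was called or had an unadjusted p-value under 0.05 in limma. The 1000 ppm comparison with control then rests on the low-dose rats that link the slides. The count of 7 called genes also moved with single rats. It was 11, 13 and 12 without control rat 1, control rat 22 or middle-dose rat 13, and 1, 1, 1, 3 and 1 without control rat 2, control rat 23 or middle-dose rats 31, 32 or 33. Ccdc40 was called in each of these 24 fits, and all 25 genes kept a mean above control at 1000 ppm in each.

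**Figure D4:**
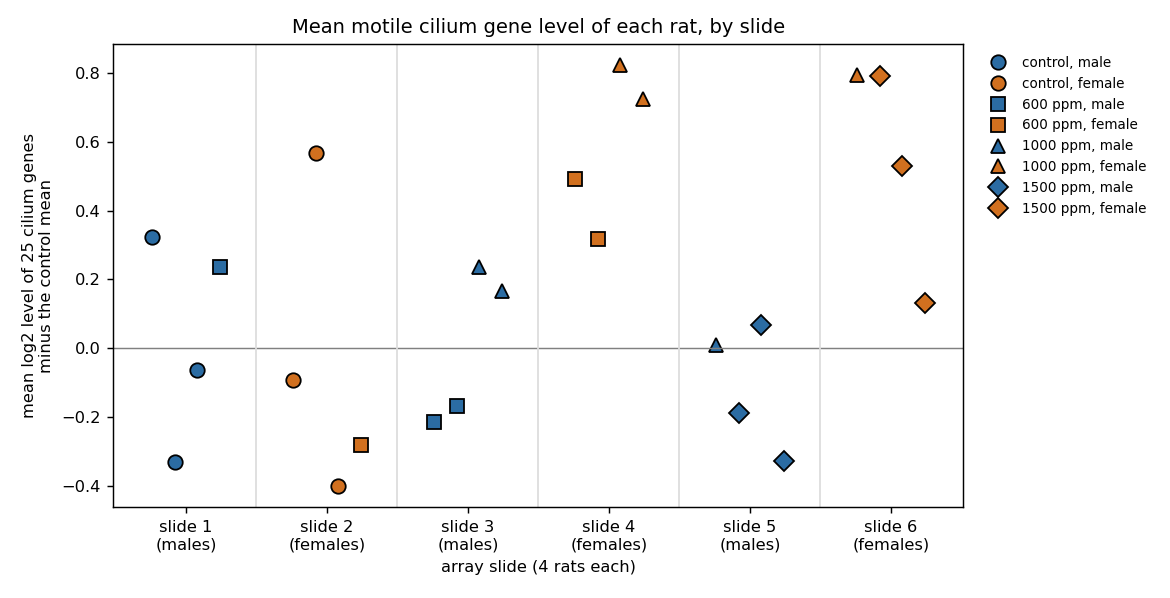
Mean log2 level of the 25 cilium genes in each rat (control mean set to 0), by array slide, with colour for sex and symbol for group. On slides 3 and 4 both 1000 ppm rats lie above both 600 ppm rats, and the 3 highest of all rats are 1000 ppm females 31 and 33 and 1500 ppm female 36.

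The cilium genes varied together from rat to rat. The mean of the 25 genes in a rat, relative to the control mean, ran from -0.40 to 0.57 in control rats (SD 0.38, n = 6), from -0.28 to 0.49 at 600 ppm (mean 0.063, SD 0.33), from 0.0085 to 0.82 at 1000 ppm (mean 0.46, SD 0.36) and from -0.33 to 0.79 at 1500 ppm (mean 0.17, SD 0.43). Rat 31 had 2.34 times the level of rat 23, the lowest. In the middle-dose group the females were alike (0.78, SD 0.051, n = 3) and all above the males (0.14, SD 0.12, n = 3). Among unexposed controls the spread was as wide as among exposed rats, with rat 22 at 0.57 and rat 23 at -0.40 on the same slide.

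After removing the group means, the median Pearson correlation over the 300 pairs of cilium genes was 0.87 across the 24 rats, and 0.82 with slide means removed. The mean over these pairs was 0.79, against 0.012 over all features. As the points share their arrays, these values describe the 24 libraries. The median SD within groups was 0.44 for the cilium genes and 0.23 for all features. Of the 25 genes 17 had a correlation of at least 0.9 with the mean of the other members, led by Ccdc65 (0.985) and Dnaaf1 (0.98). At the low end Rfx2 (0.79), Ift88 (0.725), Tekt2 (0.60) and Tppp3 (0.18) were below 0.8. Foxj1 stood at 0.90. With slide means removed Ift88 was at 0.29.

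The features outside the list that followed the mean of the 25 genes most closely within groups were Wdr31 (r = 0.99), Dydc2 (0.985), Cfap206 (0.98), Cfap77 (0.98) and Sntn (0.98), over 24 rats. Sntn codes for sentan, a protein of the tip of motile cilia. Their differences at 1000 ppm were 0.38, 0.57, 0.52, 0.70 and 0.60 on the log2 scale. Over all features, the 25 genes themselves included, 258 (1.21%) reached a correlation of 0.9 with the mean of the 25.

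A second list, of 102 other genes of motile cilia and ciliated cells, had 69 measured genes and went the same way. At 1000 ppm 66 of the 69 were above the control mean (51.4% of all features), with a median of 0.46. An unadjusted limma p-value under 0.05 was found for 29 that were higher (5.41%), and 16 were called higher (1.29%). Examples of those called higher were Zmynd10, a dynein assembly factor with the largest difference of the list (0.99, SE 0.36), Meig1 (0.75, SE 0.28) and Drc7 of the nexin-dynein regulatory complex (0.63, SE 0.25). The 3 genes below the control mean were Arl4d (-0.48, SE 0.24), Rfx7 (-0.17, SE 0.082) and Cfap45 (-0.075, SE 0.34). Trp73, a transcription factor upstream of Foxj1, differed by 0.57 (SE 0.23). The genes of intraflagellar transport and the BBSome, which primary cilia also use, had a median of 0.088. Of the 27 measured, 20 were above the control mean (51.4% of all features). For 6 that were higher the unadjusted limma p-value was under 0.05 (5.41%), and 0 were called higher (1.29%). Traf3ip1 (0.56, SE 0.21), Ift22 (0.45, SE 0.14) and Ift27 (0.39, SE 0.13) were among the 6, while Ift20 (-0.052, SE 0.079) and Bbs2 (-0.14, SE 0.12) were not. None of these genes passed the limma adjustment at 1000 ppm. These lists lie in the same 24 rats and are not independent of the first.

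Markers of other cell types moved with the cilium genes. For the airway secretory cells, which line the same airways, 9 of 12 listed genes were measured, with a median of 0.89 at 1000 ppm. Of these 9, 8 were above the control mean (51.4% of all features). For 7 that were higher the unadjusted limma p-value was under 0.05 (5.41%), and 5 were called higher (1.29%). Scgb3a1 and Bpifb1, secreted proteins of the larger airways, differed by 2.95 (SE 1.27) and 2.39 (SE 0.82), Agr2, a chaperone of mucin-making cells, by 1.39 (SE 0.45), and Scgb1a1, the main product of club cells, by -0.029 (SE 0.10). The mean level of the 9 secretory genes in a rat, relative to the control mean, ran from -1.12 to 1.05 in control, -0.26 to 1.95 at 600 ppm, 0.26 to 2.08 at 1000 ppm and -0.60 to 2.26 at 1500 ppm, and its correlation with the cilium level over the 24 rats was 0.81 (Spearman's rho 0.84), 0.765 without the pair of rats farthest from the median and 0.72 with slide means removed. Of the heart muscle genes 8 of 11 passed the filter (Nppa, Myl2 and Myl3 did not). They had a median difference of 2.25 at 1000 ppm, with all 8 above control (51.4% of all features) and 3 called higher (1.29%). Their level ran from -2.24 to 2.49 in control and from 0.24 to 4.14 at 1000 ppm, and the correlation with the cilium level was 0.52 (rho 0.58), or 0.42 without the same pair of rats. Myh6, the atrial myosin heavy chain, differed by 4.93 (SE 2.52).

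Endothelial genes ran the other way. Of 7 measured, 6 were below the control mean at 1000 ppm, where 51.4% of all features were above it. The median of the 7 was -0.21. The correlation of their level with the cilium level was -0.85 (rho -0.795), or -0.84 without that pair. The correlation was -0.73 for 8 alveolar type 1 genes, -0.58 for 9 alveolar type 2 genes, 0.67 for 6 airway basal cell genes and -0.043 for 6 leukocyte genes. With slide means removed these were -0.64, -0.405, 0.45 and 0.089, and the endothelial value was -0.73. In males alone it was -0.45 for endothelial, 0.001 for type 2 and 0.27 for basal genes, against -0.89, -0.60 and 0.64 in females. Type 1 genes gave -0.695 in males and -0.60 in females, and leukocyte genes 0.38 and -0.14. The basal and leukocyte lists were mixed in their correlation with the cilium mean within groups. Among basal genes it was 0.82 for Krt15, 0.67 for Ngfr, 0.59 for Dapl1, 0.33 for Krt14, -0.075 for Krt5 and -0.33 for Trp63. Among leukocyte genes it was 0.76 for Cd3e, 0.75 for Ptprc, 0.42 for Itgam, -0.56 for Cd68, -0.58 for S100a9 and -0.71 for Mrc1. The part of these other cell types in the cilium gene differences was not tested. In 1 alternative the 9 rats whose heart muscle level was more than 2 above the control mean were left out (1 control, 2 low-dose, 4 middle-dose and 2 high-dose rats). In the 2 middle-dose rats that remained all 25 cilium genes were above control, with a median of 0.58. At 1500 ppm 13 were above control, with a median of 0.0034. The control left out, rat 1, had a mean cilium level of 0.32, so that the control mean was lower here. This alternative was chosen after seeing the data, and the share of all features is not given for it. With 2 middle-dose rats it cannot show what part heart muscle had in the cilium gene differences.

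**Figure D5:**
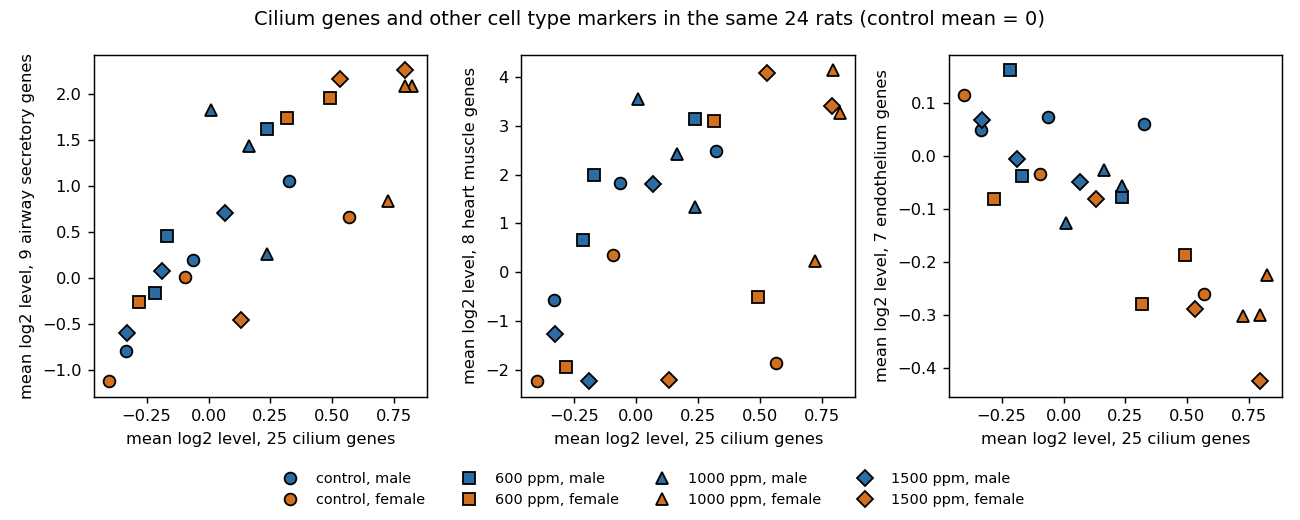
Mean log2 level of the airway secretory, heart muscle and endothelial genes against that of the 25 cilium genes in each of the 24 rats (control mean set to 0), with colour for sex and symbol for group. The secretory level rises with the cilium level (r = 0.81) and the endothelial level falls with it (r = -0.85), while the heart muscle level scatters more widely (r = 0.52).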

How the data were processed

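Lung total RNA of 24 rats was labeled with Cy3 and hybridized to one-colour Agilent rat arrays (design on build rn4), 6 rats in each of 4 groups taken from the sample labels. The deposited intensities are the processed signals of Agilent Feature Extraction 11.5.1.1, background-subtracted by the authors and not scaled between arrays. The deposited value table repeats these intensities, with 99.69% or more of an array's probes equal, on a linear scale that is not centred (medians from 262.79 to 441.29). How the authors normalized them is not given in the sources used here. The number of arrays limits the precision.

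Non-control spots (42877) were averaged into 30367 probes, leaving out outlier spots except in 650 values where every spot was one. Of the probes, 60.4% were named by accession through a RefSeq table of GRCr8, used for names only. Values are log2 signals minus the 75th percentile of their array. The filter kept the 23622 probes that were well above background in 5 or more of the 6 rats of some group, and a gene with several probes was taken from its brightest one. R 4.3.3, limma 3.58.1 (lmFit, eBayes) and the data.table package (version 1.17.8) were used, with Benjamini-Hochberg adjustment over 21261 features. The study's own rule is a fold of 1.5 with p under 0.05 in an unpaired t-test, which was an alternative here. The difference between the sexes was tested on 8 groups of dose and sex. Exact permutation tests were two-sided.

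The members and gene lists were chosen with earlier results of these data known. The genes named are the first measured member of each of 8 roles, every called member, the 2 smallest p-values at each dose, the 4 smallest for the sex difference, and the 5 features most like the mean. The remaining members, and the examples from other lists, were named after their values were seen. Alternatives were other background corrections, scalings, filters, probes, array weights, tests and slide blocks, and leaving out each rat.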

Additional observations from a re-analysis of the deposited data

Results flagged for a closer look

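In 64 sets of 6 rats tested for a single rat far from the others, 1 was found, where chance gives about 1 in 20. The level of Spef2 in control rat 22 was -1.49, against -2.32 to -2.73 in the other 5 controls, and the gap to its neighbour was 0.671 of the whole range of the group, above Dixon's critical value of 0.625. The difference of Spef2 from control at 1000 ppm was 0.59 with this rat and 0.77 without it. The same rat had the highest mean cilium level of the control group.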

How the results depend on the processing

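The number of rats per group (6), the slides and the spread between rats limit these results. At 1000 ppm the median difference stayed between 0.43 and 0.61 under the alternatives other than leaving out rats, and no alternative brought a cilium gene past the adjustment. The count of genes called higher at 1000 ppm was 4 with normexp background correction, 12 with the value table without scaling, 0 with slide as a fixed block and 4 with slide as a random block, against 7, and it lay between 1 and 13 when each rat was left out. With slide as a fixed block the genes with a higher effect in females numbered 2 at 600 ppm, 4 at 1000 ppm and 2 at 1500 ppm, and the cause was not tested. With array weights 14 genes were above the control mean at 1500 ppm, and 3 had a sex difference past the adjustment there. In the main fit 4.97% of all features passed that adjustment. The shares of all features under the alternatives are not given here. Without the rats of a high heart muscle level 13 were above the control mean at 1500 ppm. When each rat was left out, between 12 and 23 genes were above the control mean at 600 ppm, and between 0 and 1 gene was called higher at 1500 ppm. No paired analysis was possible because the groups share no replicate numbers.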
